A study of Mus musculus with 44 samples.

Results

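Genes that mark bile duct epithelium, and that are switched on when ductules multiply in an injured liver, were followed through 44 liver RNA-sequencing libraries. The set is Krt7, Krt19, Krt23, Epcam, Cd24a, Prom1, Sox9, Spp1 and Cftr, chosen by name. All 9 were present among the 35249 genes of the count table, and all 9 were among the 14862 genes with enough counts to be tested. The libraries come from livers of wild-type (WT) mice, of Ripk3-/- mice and of Mlkl-/- mice. RIPK3 is the kinase that starts necroptosis, a lytic form of programmed cell death, and MLKL is the protein it activates to breach the cell membrane, so both knockouts block that route to cell death.

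Feeding began at 2 months of age and lasted 6 months. Control mice ate chow, and the others ate feed without choline that was either low in fat, here CD-LFD, or high in fat, here CD-HFD. There were 6 libraries in each of the WT groups, WT control, WT CD-LFD and WT CD-HFD. Ripk3-/- mice gave 6 control, 3 CD-LFD and 4 CD-HFD libraries, and Mlkl-/- mice gave 6 control, 4 CD-LFD and 3 CD-HFD libraries. The labels name knockout mice without a Cre driver or a cell type, and they give no background strain, sex or litter. Nothing in them says that each library is a separate animal, so the p-values measure the spread between libraries.

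Bile ducts are lined by cholangiocytes, epithelial cells that modify bile. In chronic injury, cholangiocytes and hepatocytes that take on a biliary state form irregular strings of ductular cells at the edge of the portal tract, which is called a ductular reaction. Choline deficiency blocks export of fat from hepatocytes, and long feeding leads to steatohepatitis, fibrosis and tumours, settings in which ductular reactions are common. Krt7 and Krt19 (ENSMUSG00000023039 and ENSMUSG00000020911) encode the keratins that pathologists stain to see bile ducts, and Krt23 (ENSMUSG00000006777) encodes a keratin induced in injured liver. Epcam (ENSMUSG00000045394) encodes an epithelial adhesion molecule, Cd24a (ENSMUSG00000047139) a small membrane-anchored glycoprotein and Prom1 (ENSMUSG00000029086) the membrane protein CD133, and all these are used to sort ductular and progenitor-like cells. Sox9 (ENSMUSG00000000567) encodes the transcription factor of the biliary lineage. Spp1 (ENSMUSG00000029304) encodes osteopontin, a secreted matrix protein made by cholangiocytes and also by macrophages. Cftr (ENSMUSG00000041301) encodes the chloride channel that drives bile duct secretion.

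Promoter sequence is shown for 3 of the genes that changed together, to let the start regions be compared. RefSeq (GRCm38.p6) promoter windows were at hand for 6 of the 9 genes, in 8 windows; Krt19, Sox9 and Cd24a had no entry. Each run below is the 250 bases before the start site, and capitals mark matches, on either strand, to ACAAAG (SOX), AGGAAG (ETS), TGANTCA (AP-1) or GGAATG (TEAD).
Spp1, chr5:104434861-104435110, + strand: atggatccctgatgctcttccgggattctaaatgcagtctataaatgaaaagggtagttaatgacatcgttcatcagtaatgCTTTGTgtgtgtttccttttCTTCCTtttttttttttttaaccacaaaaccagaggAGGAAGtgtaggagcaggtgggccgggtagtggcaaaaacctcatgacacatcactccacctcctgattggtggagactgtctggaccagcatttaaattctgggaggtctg
Krt7, chr15:101412153-101412402, + strand: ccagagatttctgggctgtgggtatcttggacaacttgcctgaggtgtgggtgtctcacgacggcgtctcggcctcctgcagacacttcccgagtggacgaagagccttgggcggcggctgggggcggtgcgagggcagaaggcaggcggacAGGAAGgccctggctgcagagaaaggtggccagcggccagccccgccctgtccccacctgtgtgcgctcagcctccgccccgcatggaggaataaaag
Epcam, chr17:87635729-87635978, + strand: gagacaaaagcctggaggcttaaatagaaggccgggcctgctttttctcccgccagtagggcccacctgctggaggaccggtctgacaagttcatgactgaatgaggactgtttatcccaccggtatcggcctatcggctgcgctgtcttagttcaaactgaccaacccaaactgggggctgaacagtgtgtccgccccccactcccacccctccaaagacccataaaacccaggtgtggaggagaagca
The Spp1 window shown held a SOX match at -168 to -163 and ETS matches at -148 to -143 and -112 to -107, counted from the start site, and a further Spp1 window held 1 match to each of these. Krt7 held an ETS match at -98 to -93, and the Epcam window held none of these letters. SOX letters occurred in 2 of the 8 windows, both of Spp1, against 16.5% of all 32851 windows of this length. ETS letters occurred in 5 of the 8 windows (Cftr, Krt7, Prom1 and Spp1) against 29.5%, AP-1 letters in 2 (Prom1) against 6.75% and TEAD letters in 0 against 12.6%. These matches describe the letters of the windows and were not tested against the expression values.

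Total counts per library ran from 2476268 to 12471844 in 43 libraries and reached 88204703 in WT CD-LFD replicate 3. Ripk3 was at 0.511 to 4.89 CPM (read counts scaled to the size of the library) in WT libraries and at 0 to 0.326 CPM in Ripk3-/- libraries except control replicate 5 (1.26 CPM, 9 counts). Mlkl transcript was still counted in Mlkl-/- livers, at 1.46 to 4.83 CPM against 2.28 to 17.7 CPM in WT livers, and the library labelled Mlkl-/- CD-HFD replicate 1 was higher, at 12.5 CPM. Where counted reads fall relative to the deleted part of the gene is not given in the sources used here, so Mlkl does not check those labels. The ratio of Arntl to Dbp, clock genes that peak at opposite times of day, split the libraries in 2 around the widest gap that leaves at least 5 libraries on either side, a minimum added after seeing the data. Wider gaps, between WT control libraries at the upper end, would set only 1 or 2 libraries apart. The upper side held 4 of 6 WT control, 6 of 6 WT CD-LFD and 1 of 6 WT CD-HFD libraries and no knockout library.

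In WT livers, all 9 genes were higher on CD-HFD than on control diet. The rises ran from 2.19-fold for Sox9 to 20.1-fold for Spp1, and for 8 of the 9 no CD-HFD library overlapped a control library, which held for 14.3% of all genes tested in the same direction. The median log2 change was 3.42, against -0.0658 over all genes tested. The background was wide, since 23.5% of all genes tested were higher and 24.1% lower with an adjusted p below 0.05, which is what "called" means here (quasi-likelihood test of edgeR, corrected over all genes by the Benjamini-Hochberg method). Scaling by library size alone moved the median of all genes to 0.427 and the calls to 6813 higher and 1020 lower, from 3496 and 3586, and the median of the 9 genes was then 3.91. In bulk tissue, more cells of a type and more RNA per cell cannot be told apart.

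The keratins rose from near the detection limit. Krt7 was at 0.489, 0.918 and 2.69 CPM (lowest, median and highest) in the 6 WT control libraries and at 10.7, 13.8 and 17.6 CPM in the 6 CD-HFD libraries. Its log2 change was 3.56 (SE 0.454, adjusted p = 2.01e-08). Krt19 went from 0.552, 1.76 and 3.18 CPM to 11.1, 16.4 and 19.2 CPM, a log2 change of 3.17 (SE 0.416, adjusted p = 3.81e-08). The highest control library was thus well under the lowest CD-HFD library for both bile duct keratins. Krt23 was at 0, 0.367 and 1.10 CPM in controls, with no read in 2 of the 6, and at 4.91, 7.05 and 10.3 CPM on CD-HFD (log2 change 3.57, SE 0.465, adjusted p = 3.32e-08).

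Transcripts for surface proteins of ductular cells were higher too, by 9.14-fold for Prom1, 10.7-fold for Cd24a and 19.2-fold for Epcam. Epcam was at 0.733, 1.66 and 2.77 CPM in WT control livers and at 24.4, 34.7 and 45.9 CPM on CD-HFD, with a log2 change of 4.26 (SE 0.517, adjusted p = 6.93e-09). Cd24a went from 1.36, 2.14 and 2.69 CPM to 13.2, 21.3 and 32.6 CPM (log2 change 3.42, SE 0.383, adjusted p = 1.15e-09). Prom1 went from 0.456, 1.01 and 2.46 CPM to 5.56, 9.88 and 18.3 CPM (log2 change 3.19, SE 0.460, adjusted p = 2.55e-07). None of these 3 genes had a CD-HFD library inside the control range.

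Sox9, the lineage factor, started higher and moved least. It was at 9.22, 13.6 and 31.0 CPM in WT control livers and at 26.6, 34.7 and 41.4 CPM on CD-HFD, so the ranges overlapped, and its log2 change was 1.13 (SE 0.241, adjusted p = 0.000156). The upper side of the clock split holds 1 WT CD-HFD library, too few to test these diets within it. The Sox9 log2 change there was 1.03. Spp1 was by far the most abundant of the set, at 27.8, 39.5 and 50.8 CPM in WT control livers and at 597, 766 and 1005 CPM on CD-HFD (log2 change 4.33, SE 0.363, adjusted p = 7.3e-13). Cftr, the secretory channel, was scarce. It had 9 reads over the 6 WT control libraries, 3 of them with none, and 181 reads over the 6 CD-HFD libraries (log2 change 3.17, SE 0.620, adjusted p = 4.79e-05), and the pooled rate was 9.59 times higher (95% interval 4.94 to 21.3, counting error only).

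Per kilobase of the longest coding transcript, the order of levels in WT control livers was Spp1 at 26.5 ± 5.87 CPM per kb (SD, n = 6), Sox9 at 3.91 ± 1.92, Krt19 at 1.16 ± 0.639, Cd24a at 1.13 ± 0.314, Epcam at 0.852 ± 0.421, Krt23 at 0.305 ± 0.313, Krt7 at 0.288 ± 0.194, Prom1 at 0.271 ± 0.181 and Cftr at 0.0612 ± 0.0863. Apart from the gap below Spp1 and the gap below Sox9, neighbours in this order had overlapping ranges of mean ± SD. The lengths used were 4094 bases for Krt7, 1576 for Krt19 and 1565 for Krt23, and the order depends on the transcript chosen. On CD-HFD the WT levels per kilobase were 530.1 ± 115.6 for Spp1, 16.7 ± 3.93 for Epcam, 12.2 ± 3.90 for Cd24a, 9.91 ± 1.91 for Krt19, 8.36 ± 1.54 for Sox9, 4.67 ± 1.38 for Krt23, 3.42 ± 0.651 for Krt7, 2.48 ± 1.14 for Prom1 and 0.519 ± 0.166 for Cftr. The Sox9 mean was the second highest on control diet and the fifth on CD-HFD, where its range of mean ± SD lay below that of Epcam and overlapped those of Cd24a and Krt19.

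**Figure D1:**
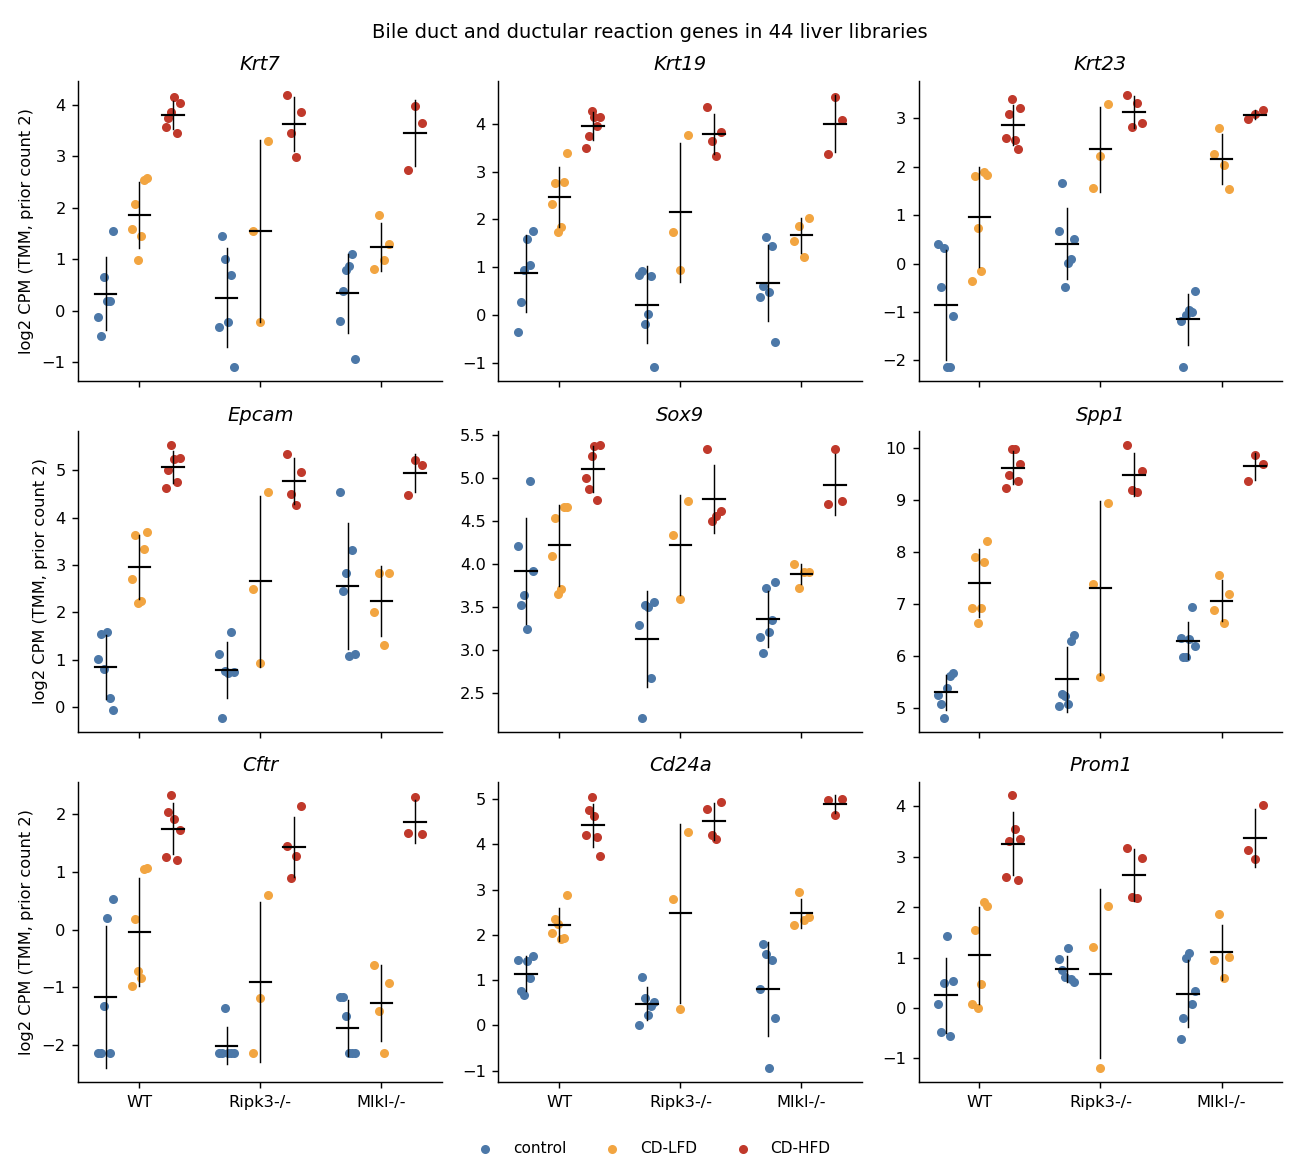
Level of each of the 9 genes in every library (points, log2 CPM with a prior count of 2), by genotype and diet, with the group mean (bar) and SD (line). The CD-HFD group means lie highest in every genotype, with single libraries of other groups reaching the CD-HFD range (Sox9 in WT control, Epcam in Mlkl-/- control), and in the Ripk3-/- CD-LFD group replicate 3 is the highest of 3 for every gene, by the smallest ratio for Sox9.

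The low-fat choline-deficient diet gave smaller changes. In WT livers 6 of the 9 genes were called higher on CD-LFD than on control diet (13.7% of all genes tested were higher), with a median log2 change of 1.61. Spp1 was at 98.4, 173 and 293 CPM (log2 change 2.20, SE 0.334, adjusted p = 3.66e-06) and Epcam at 4.35, 8.09 and 12.7 CPM (2.20, SE 0.537, adjusted p = 0.00201), and neither overlapped the control range. Krt7, Krt19 and Krt23 rose by 1.61, 1.71 and 1.75 on the log2 scale and overlapped the controls, while Cd24a rose by 1.16 and did not. Sox9 (log2 change 0.268, 95% interval -0.222 to 0.759), Cftr (1.30, -0.119 to 2.71) and Prom1 (0.942, -0.0780 to 1.96) did not pass the test. The clock split moves with this comparison: among WT libraries on its upper side, 3 genes were called, Krt19, Epcam and Spp1, where the calls over all genes fell to 17.0% in either direction. The other 3 genes had changes of like size there, 1.38 for Krt7, 1.47 for Krt23 and 1.12 for Cd24a, so the lost calls do not show that the changes depend on the clock side. With the clock covariate in edgeR, Cd24a did not pass (1.01, adjusted p = 0.0795), where 22.6% of all genes were called in either direction. Nor did Cd24a pass without WT control replicate 2 (1.08) or 3 (1.04) or without WT CD-LFD replicate 6 (0.994).

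Between the choline-deficient diets, WT CD-HFD livers exceeded WT CD-LFD livers for all 9 genes, and no library of the first group overlapped the second for any of them. Of all genes tested, 13.7% were called higher and 7.63% were higher without overlap. Clock side nearly coincides with diet here, since 6 of 6 CD-LFD libraries lie on the upper side and 5 of 6 CD-HFD libraries on the lower. With the clock covariate all 9 were called (15.1% of all genes called in either direction). The upper side alone has 1 CD-HFD library, too few for a test, and the Sox9 difference there was 0.993, against 0.861 as reported. The log2 differences ran from 0.861 for Sox9 to 2.26 for Cd24a. Prom1, which did not pass on CD-LFD, differed by 2.25 (SE 0.389, adjusted p = 3.1e-05).

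**Figure D2:**
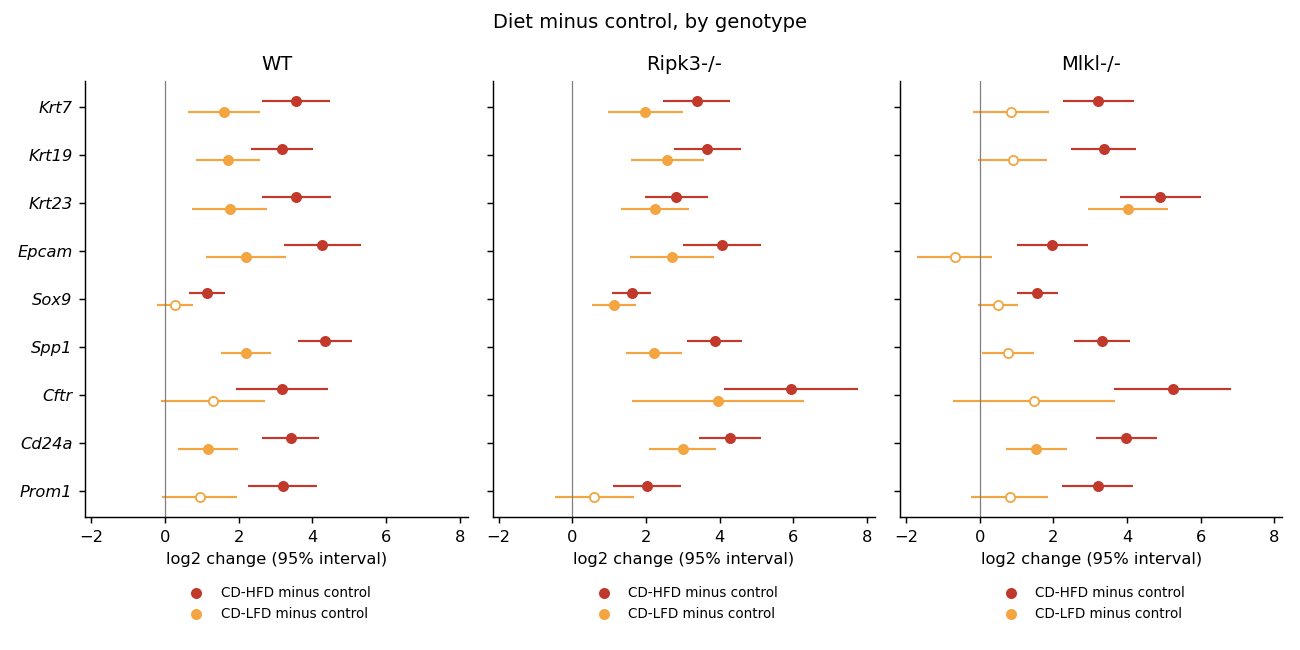
Log2 change of each gene against control diet in each genotype (points, with 95% intervals), for CD-HFD (red) and CD-LFD (orange); filled points have an adjusted p under 0.05. Every CD-HFD point is filled, while the CD-LFD points are filled for 6 genes in WT, 8 in Ripk3-/- and 2 in Mlkl-/- livers.

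Other genes of bile duct epithelium moved with the set in WT CD-HFD livers. Of 20 listed genes, 19 were tested, 17 were higher and 2, Dsg2 and Lad1, did not pass. The median log2 change was 3.40, and 23.5% of all genes tested were higher. The tetraspanin Tspan8 (log2 change 5.05, SE 0.489), the membrane protease St14 (4.91, SE 0.434), the epithelial transcription factor Ehf (4.32, SE 0.513) and the tight junction gene Cldn7 (4.27, SE 0.562) changed most among those with a mean log2 CPM of at least 0. Tspan8 was at 0, 0.398 and 1.24 CPM in control and 11.8, 17.3 and 31.9 CPM in CD-HFD livers. The keratins of simple epithelia that hepatocytes also carry, Krt8 and Krt18, rose by 1.35 (SE 0.240) and 0.925 (SE 0.261) in WT, and both were also called higher in Ripk3-/- livers on CD-HFD. In Mlkl-/- livers neither was higher on CD-HFD than on control diet: Krt18 was lower (-0.780, SE 0.328, adjusted p = 0.0489) and Krt8 did not pass (-0.540, SE 0.295), and on CD-LFD both were lower. Both were called lower in the interaction of Mlkl-/- with either diet. These terms share the Mlkl-/- controls. Both genes were higher there than in WT controls (median log2 difference 1.43, 13% of all genes tested higher). Their summed level was 1890 CPM at the median and 2520 CPM at the highest, against 602 and 804 CPM in WT controls. The lowest Mlkl-/- control lay below the WT control range. On CD-HFD neither gene was called between Mlkl-/- and WT livers (median -0.363, 0% of all genes called).

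Signalling genes were mixed. In the Notch and Hippo list 10 of 19 tested were higher and 1, Yap1, was lower (-0.502, SE 0.138), with a median of 0.441. The background for this and the next 2 lists was 23.5% of all genes tested higher and 24.1% lower. Ankrd1 (3.89, SE 0.528) and Ccn2 (1.81, SE 0.277), targets of the YAP and TEAD complex, and the factors Tead2 (1.54, SE 0.430) and Tead1 (1.33, SE 0.247) rose. Of 11 tested genes for signals of the ductular reaction 8 were higher and 1, the hepatocyte growth factor receptor gene Met, was lower (-0.736, SE 0.225). The median of that list was 1.92, also with Areg and Osm, which had no read in WT control livers, set to their lower bound (floor of 3 counts over the group). Itgb8, whose integrin activates TGF-beta, rose by 2.85 (SE 0.450), Tgfb2 by 2.63 (SE 0.408), the oncostatin M receptor gene Osmr by 1.92 (SE 0.416) and the TWEAK receptor gene Tnfrsf12a by 1.73 (SE 0.419). Among 7 receptors for osteopontin 5 rose, Itgb3 fell (-0.816, SE 0.265) and Itgb1 did not pass. Cd44 rose most (3.02, SE 0.290), then Itga4 (1.85, SE 0.284) and Itgb5 (0.789, SE 0.152). Dsg2, Lad1, Yap1, Met and Itgb1 were named after their values were seen.

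Markers of other liver cells changed in the same libraries. All 10 macrophage genes were higher in WT CD-HFD than control livers, and their summed level was 1090 to 2480 CPM against 68.6 to 102 CPM. Of 9 stellate and myofibroblast genes 8 were higher, with sums of 804 to 1460 against 192 to 235 CPM. Of 8 hepatocyte genes 6 were lower, with sums of 58500 to 96700 against 89600 to 163000 CPM. Beside these counts, 23.5% of all genes tested were higher and 24.1% lower. Pancreatic acinar genes, as a sign of stray pancreatic tissue, summed to at most 0.722 CPM in WT CD-HFD and 0.733 CPM in WT control livers. None passed the count filter, and the highest sum in any group was 3.75 CPM, in a Ripk3-/- CD-LFD library. Of mesothelial genes, another source of keratin RNA, 2 passed the filter, 1 of them was higher, and the median sum was 2.92 against 1.51 CPM. The part of macrophages in the Spp1 rise, and of fewer hepatocyte transcripts in all 9 rises, was not tested. Marker lists also changed in the knockouts on CD-HFD. In Ripk3-/- livers all 10 macrophage genes (sums of 1540 to 1820 against 42.9 to 146 CPM), 8 of 9 stellate and 5 of 5 B cell genes were higher and 6 of 8 hepatocyte genes lower, beside 24.6% and 21.7% of all genes tested. In Mlkl-/- livers all 10 macrophage genes (sums of 1660 to 2360 against 59.9 to 95.5 CPM), 8 of 9 stellate and 5 of 5 B cell genes were higher and 4 of 8 hepatocyte genes lower, beside 24.9% and 20.3% of all genes tested. On CD-LFD, 8 of 10 macrophage genes were higher than in controls in each genotype, with sums of 184 to 333 CPM in WT, 198 to 374 CPM in Ripk3-/- and 265 to 409 CPM in Mlkl-/- livers. Of the 9 stellate genes 8, 7 and 4 were higher on CD-LFD in the same order, and of the 5 B cell genes 1, 4 and 4. The shares of all genes tested that were higher were 13.7%, 14% and 19.7%. Hepatocyte genes lower on CD-LFD were 3, 2 and 2 of 8, with 3 of 8 higher in Mlkl-/- livers, where of all genes tested 14%, 10.1% and 18.3% were lower and in Mlkl-/- livers 19.7% higher. Both tested neutrophil genes were lower in Mlkl-/- livers on CD-LFD (median -1.85). On CD-HFD, 2 of 5 B cell and 1 of 2 neutrophil genes were higher in WT livers, where 23.5% of all genes tested were higher. Of 3 tested erythroid genes 1, 2 and 1 were lower on CD-HFD in WT, Ripk3-/- and Mlkl-/- livers. In the same order 24.1%, 21.7% and 20.3% of all genes tested were lower. The part of these cell types in the rises of the 9 genes on CD-LFD and in the knockouts was not tested.

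**Figure D3:**
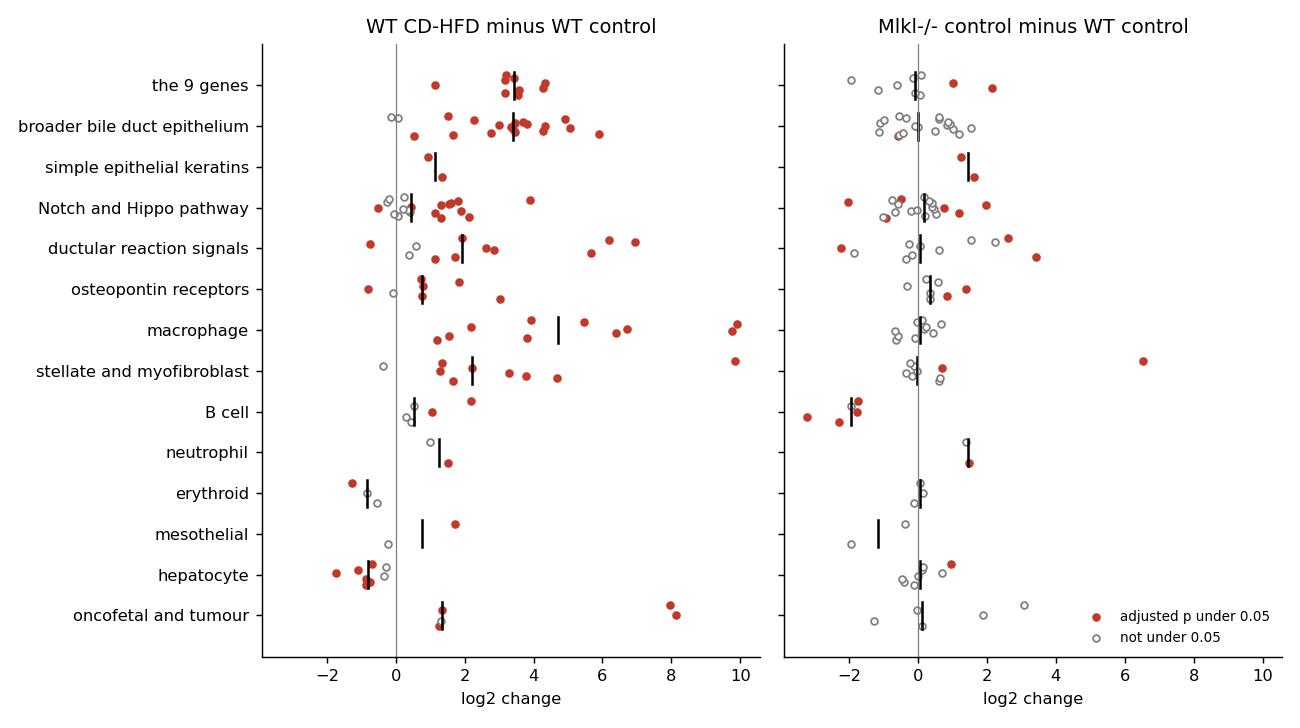
Log2 change of each tested gene (points, red where the adjusted p is under 0.05) and the list median (bar), for the 9 genes, 5 related lists and 8 lists of other markers. On the left, WT CD-HFD minus WT control, the bile duct lists center near 3.4; on the right, Mlkl-/- control minus WT control, they center near 0 and Krt8 and Krt18 stand at 1.61 and 1.25.

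Ripk3-/- livers on CD-HFD also had all 9 genes higher than Ripk3-/- controls, with no overlap for any gene (24.6% of all genes tested were higher, and 20.6% were higher without overlap) and a median log2 change of 3.67. Spp1 was at 1059, 581, 566 and 748 CPM in the 4 CD-HFD libraries, against 32.7, 37.6 and 84.5 CPM (lowest, median, highest) in 6 controls (log2 change 3.87, SE 0.368, adjusted p = 2.29e-11). Epcam was at 40.3, 22.4, 18.97 and 31.1 CPM against 0.628, 1.46 and 2.79 CPM (4.06, SE 0.523, adjusted p = 2.82e-08). Krt19 was at 20.1, 12.3, 9.88 and 14.1 CPM against 0.241, 1.16 and 1.68 CPM (3.67, SE 0.446, adjusted p = 8.55e-09). Replicate 1, listed first, was the highest of the 4 for all 3 genes. Cftr had 104 reads over the CD-HFD libraries and 1 read over the 6 controls, a pooled ratio of 91.6 (95% interval 16.1 to 3650, counting error only). The other changes ran from 1.61 for Sox9 to 4.27 for Cd24a.

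Ripk3-/- livers on CD-LFD gave a count that turned on 1 library. By the test, 8 of 9 genes were higher than in Ripk3-/- controls (14% of all genes tested were higher), all but Prom1. Replicate 3 was the highest of the 3 libraries for all 9 genes, and for 6 of them it lay inside the range of the CD-HFD group. Spp1 was at 167, 48.3 and 489 CPM in replicates 1, 2 and 3, Krt7 at 2.71, 0.632 and 9.67 CPM, Epcam at 5.42, 1.69 and 23.0 CPM and Cd24a at 6.67, 1.05 and 19.2 CPM. Without replicate 3, 1 gene was called, Cd24a. The log2 changes of Krt7, Epcam and Spp1 were then 0.464, 1.09 and 1.09, against 1.98, 2.69 and 2.22 with it. CD-HFD against CD-LFD gave 2 calls in Ripk3-/- livers, Spp1 (1.65, SE 0.435, adjusted p = 0.0119) and Cd24a (1.27, SE 0.413, adjusted p = 0.043), where 5.75% of all genes tested were higher. That count became 7 without CD-LFD replicate 3, 0 without CD-LFD replicate 1 or 2, and 1 without CD-HFD replicate 1 or 5. The shares of all genes called in fits with a library left out are not given here, so these counts have no background.

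In Mlkl-/- livers the 9 genes were again all higher on CD-HFD than on control diet (24.9% of all genes tested were higher, and 22.2% were higher without overlap), with a median log2 change of 3.33. Spp1 was at 658, 934 and 828 CPM in the 3 CD-HFD libraries against 62.3, 76.5 and 122 CPM (lowest, median, highest) in 6 controls (3.33, SE 0.375, adjusted p = 1.45e-09). Krt19 was at 10.1, 23.5 and 16.8 CPM against 0.448, 1.24 and 2.89 CPM (3.37, SE 0.437, adjusted p = 3.28e-08). Epcam moved least after Sox9 and was the gene whose ranges overlapped, at 21.9, 36.7 and 34.4 CPM against controls of 1.90 to 23.1 CPM (1.97, SE 0.475, adjusted p = 0.000729). Krt23 had the largest rise after Cftr, 4.90 (SE 0.541, adjusted p = 8.84e-10), from at most 0.448 CPM in controls to 7.66, 8.22 and 8.80 CPM. Cftr had 75 reads on CD-HFD and 3 over the 6 controls, a pooled ratio of 45.4 (95% interval 15.0 to 225, counting error only).

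On CD-LFD, Mlkl-/- livers had 2 of the 9 genes higher than their controls (19.7% of all genes tested were higher), Krt23 and Cd24a. Krt23 was at 4.58, 6.71, 3.85 and 2.68 CPM in the 4 libraries, all above the control maximum (4.02, SE 0.542, adjusted p = 4.38e-07). Cd24a was at 4.41, 7.45, 4.81 and 5.06 CPM against controls of at most 3.26 CPM (1.54, SE 0.417, adjusted p = 0.00382). Krt7 (0.848, 95% interval -0.186 to 1.88), Krt19 (0.894, -0.0424 to 1.83), Spp1 (0.772, 0.0679 to 1.48) and Epcam (-0.684, -1.69 to 0.325) did not pass, nor did Sox9, Cftr and Prom1. From CD-LFD to CD-HFD 8 of 9 were higher (14.6% of all genes tested were higher) and no ranges overlapped (20.8% of all genes tested were higher without overlap); Krt23 was the gene that did not pass (0.882, SE 0.441, adjusted p = 0.144). Krt23 in Mlkl-/- livers had thus reached 4.45 ± 1.69 CPM (SD, n = 4) on CD-LFD and 8.23 ± 0.568 CPM (n = 3) on CD-HFD.

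Whether loss of RIPK3 or MLKL changed the response was asked within each diet. On CD-HFD no gene of the 9 differed from WT in Ripk3-/- livers (0.377% of all genes tested were called) or in Mlkl-/- livers (0% were called) by the edgeR test; none had an unadjusted p under 0.05, and DESeq2 called none. The 95% intervals of the log2 differences ran within -1.51 to 0.970 for Ripk3-/- and -1.13 to 1.17 for Mlkl-/- livers. For Spp1 the difference was -0.114 (-0.821 to 0.594) in Ripk3-/- and 0.0139 (-0.759 to 0.786) in Mlkl-/- livers, and for Krt19 it was -0.160 (-0.887 to 0.567) and 0.108 (-0.683 to 0.900). The widest departure was Prom1 in Ripk3-/- livers, at 8.82, 4.39, 4.28 and 7.59 CPM against 5.56 to 18.3 CPM in WT (-0.706, -1.51 to 0.102).

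On CD-LFD the edgeR test called none of the 9 in Ripk3-/- (1.1% of all genes tested were called) or Mlkl-/- livers (2.56% were called), and DESeq2 called none. Unadjusted p was under 0.05 for Krt23 and Cd24a in Ripk3-/- and for Krt19, Krt23 and Cftr in Mlkl-/- livers. Krt23 was 1.49 higher in Ripk3-/- (adjusted p = 0.068) and 1.11 higher in Mlkl-/- livers (adjusted p = 0.136), without passing. Cd24a was 1.06 higher in Ripk3-/- livers (adjusted p = 0.207). In Mlkl-/- livers Krt19 (-0.907, adjusted p = 0.278) and Cftr (-1.79, adjusted p = 0.213) were on the other side of 0. Since all WT CD-LFD libraries lay on the upper side of the clock split and all knockout libraries on the lower, genotype and clock side cannot be told apart here.

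**Figure D4:**
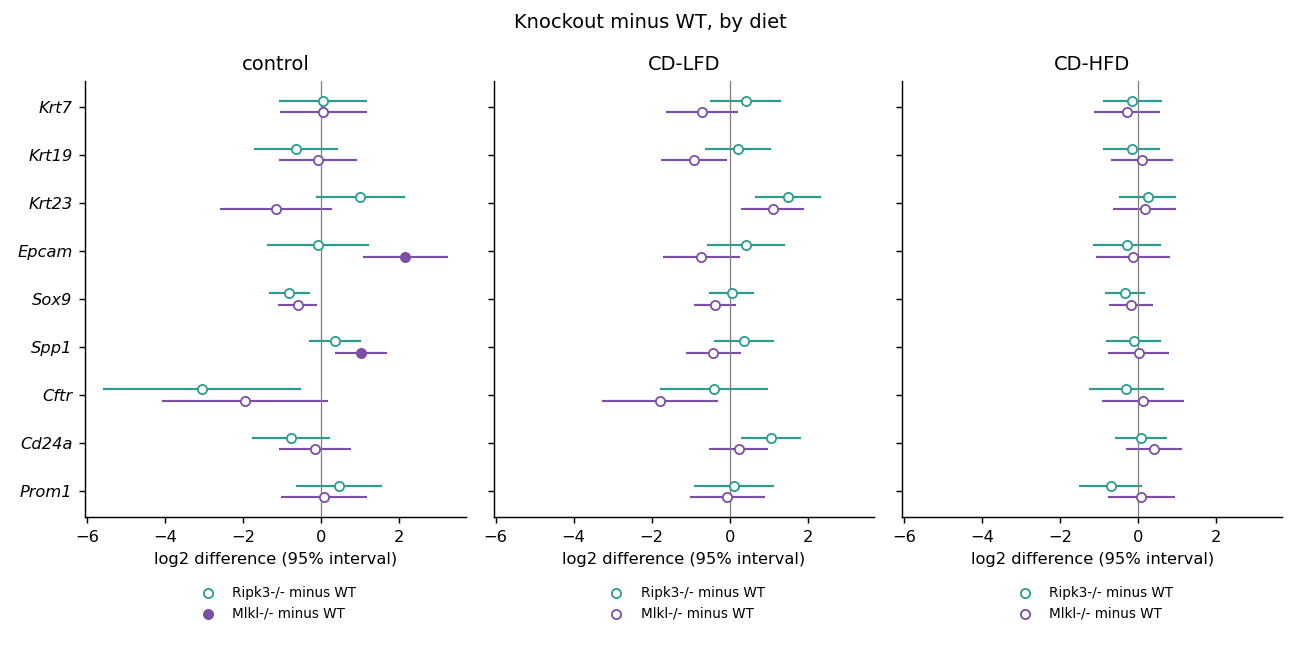
Log2 difference of each gene between knockout and WT livers on each diet (points, with 95% intervals), Ripk3-/- in green and Mlkl-/- in purple; filled points have an adjusted p under 0.05. Only Epcam and Spp1 in Mlkl-/- livers on control diet are filled, and on CD-HFD the points lie between -0.706 and 0.412.

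On control diet, Ripk3-/- livers had none of the 9 called by edgeR (4.47% of all genes tested were called). Sox9 and Cftr had an unadjusted p under 0.05, and DESeq2 called 1, Sox9, which was at 4.40, 10.3 and 11.6 CPM against 9.22, 13.6 and 31.0 CPM in WT (-0.815, SE 0.256, edgeR adjusted p = 0.056). Mlkl-/- livers on control diet had 2 of 9 higher, Epcam and Spp1, in a comparison where 13% of all genes tested were higher and 14.1% lower. Epcam was at 1.90, 6.06 and 23.1 CPM against 0.733, 1.66 and 2.77 CPM in WT (2.16, SE 0.545, adjusted p = 0.003), and Spp1 at 62.3, 76.5 and 122 CPM against 27.8, 39.5 and 50.8 CPM (1.02, SE 0.326, adjusted p = 0.0176). The Spp1 ranges did not overlap, while 2 Mlkl-/- libraries, at 1.90 and 1.94 CPM, lay inside the WT range for Epcam. Krt7 (0.0514, 95% interval -1.06 to 1.17), Krt19 (-0.0916, -1.09 to 0.910) and Prom1 (0.0707, -1.04 to 1.18) did not pass. Nor did Cd24a (-0.151, -1.07 to 0.771), Krt23 (-1.17, -2.60 to 0.273), Cftr (-1.96, -4.09 to 0.174) and Sox9 (-0.607, -1.11 to -0.0995), whose values were below 0, and 3 of the 9 had an unadjusted p under 0.05, Epcam, Spp1 and Sox9. With the libraries of the lower clock side alone, which leave 2 WT controls, neither Epcam (1.52, adjusted p = 0.242) nor Spp1 (1.11, adjusted p = 0.139) passed (13% of all genes called in either direction, against 27.1%). With clock phase as a covariate both passed, Epcam at 2.19 (adjusted p = 0.0165) and Spp1 at 1.18 (adjusted p = 0.044). Spp1 did not pass without Mlkl-/- control replicate 5 (0.856, adjusted p = 0.0547).

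The Mlkl-/- controls differed from WT controls in further genes of the lists. Krt8 (1.61, SE 0.242), Krt18 (1.25, SE 0.263), Tnfrsf12a (3.41, SE 0.432), Osmr (2.62, SE 0.418), Tead1 (1.98, SE 0.250) and Itgb3 (1.398, SE 0.248) were higher and Tgfb2 was lower (-2.23, SE 0.635). Tnfrsf12a, the TWEAK receptor, was at 7.16, 107 and 189 CPM against 5.23, 7.95 and 21.0 CPM in WT controls. Of the 19 broader bile duct genes none was higher, 1 was lower and 18 did not pass. Of 19 Notch and Hippo genes 3 were higher and 3 lower, shares near those of all genes (13% higher and 14.1% lower). Among 11 ductular reaction signals 2 were higher, 1 was lower and 8 did not pass. Among 7 osteopontin receptors 2 were higher and 5 did not pass. The upper clock side holds 4 of 6 WT control and no Mlkl-/- control libraries, and values by clock side are not given for these list genes. None of 10 macrophage genes was called (sums of 59.9 to 95.5 against 68.6 to 102 CPM), 4 of 5 B cell genes were lower (sums of 0.966 to 1.94 against 1.47 to 14.9 CPM), 2 of 9 stellate and myofibroblast genes were higher (sums of 162 to 249 against 192 to 235 CPM), 1 of 2 tested neutrophil genes was higher (sums of 0.895 to 11.8 against 0.913 to 6.98 CPM), and 1 of 8 hepatocyte genes was higher. The part of these cell types in the Epcam and Spp1 differences was not tested.

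The difference in diet response between genotypes was tested as an interaction. In Mlkl-/- livers the CD-LFD change of Epcam was smaller than in WT by 2.88 on the log2 scale (95% interval -4.38 to -1.39, adjusted p = 0.0114), in an interaction where 8.45% of all genes tested were called. The terms for Spp1 (-1.43, adjusted p = 0.0561) and Krt23 (2.27, adjusted p = 0.0753) did not pass, and 3 of the 9 had an unadjusted p under 0.05. For CD-HFD in Mlkl-/- livers edgeR called none of the 9 (4.12% of all genes tested were called); 1 had an unadjusted p under 0.05, Epcam (-2.29, adjusted p = 0.0655), and DESeq2 called 1. In Ripk3-/- livers edgeR and DESeq2 called none for CD-LFD (0.0269% of all genes tested were called by edgeR, and 2 of the 9 had an unadjusted p under 0.05) and none for CD-HFD (0.478%, and 1 of the 9). All WT CD-LFD libraries lie on the upper clock side and no knockout library does, so in both CD-LFD interactions genotype and clock side cannot be told apart. The Epcam term shares its control libraries with the comparison on control diet, in which Mlkl-/- livers were higher. On CD-LFD the levels were 2.25, 5.33 and 6.86 CPM (lowest, median, highest of 4) in Mlkl-/- and 4.35, 8.09 and 12.7 CPM in WT livers.

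Across all 9 groups, the 3 CD-HFD groups had the 3 highest means for each of the 9 genes (19.3% of all genes tested), and the 3 control groups the 3 lowest for 6 (17.5%). For 7 genes each of the 13 CD-HFD libraries was above each of the 18 control libraries; Epcam and Sox9 were the exceptions, and the same held for 9.45% of all genes tested. Of the 72 pairs of neighbouring groups in this order, 3 were free of overlap, and the like share over all genes tested is not given here. Krt19 shows the pattern. Its mean was 15.6 ± 3.01 (SD, n = 6), 14.1 ± 4.38 (n = 4) and 16.8 ± 6.69 CPM (n = 3) in WT, Ripk3-/- and Mlkl-/- livers on CD-HFD. In the same order it was 5.77 ± 2.67 (n = 6), 6.06 ± 6.37 (n = 3) and 3.03 ± 0.787 CPM (n = 4) on CD-LFD and 1.83 ± 1.01, 1.08 ± 0.594 and 1.56 ± 0.929 CPM (n = 6 each) on control diet.

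Within groups, the covariation of the genes rested in part on 1 library. After each group mean was taken out, all 36 pairs correlated positively over the 44 libraries, with a median Pearson r of 0.421, from 0.0995 for Krt23 and Cd24a to 0.819 for Krt7 and Krt19. Without Ripk3-/- CD-LFD replicate 3, an alternative chosen after seeing the data, 35 of the 36 were positive, the median was 0.294 and the range -0.0474 to 0.768. The same 9 genes paired with every other tested gene had a median r of -0.00134, and 49.8% of those pairs were positive. All libraries share depth and tissue composition across genes, so the values are descriptive. Krt23 and Sox9 had the lowest medians with the other members, 0.168 and 0.186 (0.0712 and 0.0784 without that library), and Spp1 the highest, 0.570 (0.431). Spp1 had an r of 0.801 with the mean of the broader bile duct list (19 genes), 0.505 with the macrophage list (10 genes) and -0.724 with the hepatocyte list (8 genes), or 0.714, 0.455 and -0.720 without that library, and the difference between these values was not tested. For Epcam and the ductular reaction signals r was 0.729 (0.662 without it), and for Prom1 and the bile duct list 0.772 (0.732).

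**Figure D5:**
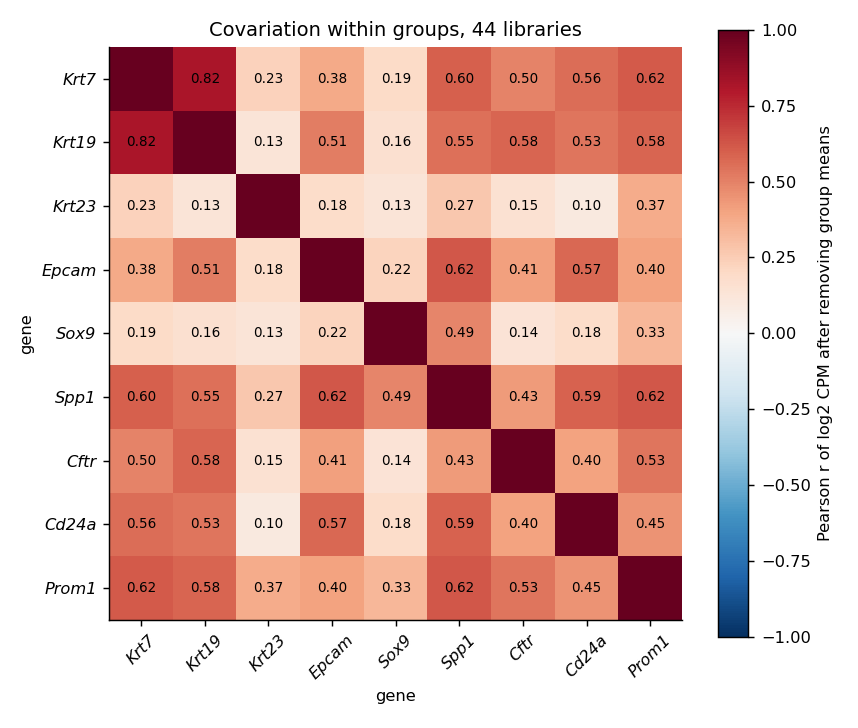
Pearson r of log2 CPM between each pair of the 9 genes over 44 libraries, after the mean of each group was removed (color and number). Krt7 and Krt19 share the highest value, 0.82, and the rows of Krt23 and Sox9 are the palest. Without Ripk3-/- CD-LFD replicate 3 the median of the 36 values was 0.294 in place of 0.421.

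The tested genes most like each member by the same measure (44 libraries) were as follows. Krt7 and Krt19 were nearest to each other, followed for Krt7 by Cbx6 (r = 0.753) and S100a6 (0.738) and for Krt19 by Selenom (0.761) and Pdzk1ip1 (0.755). Spp1 was nearest to Capsl (0.809), Gas6 (0.802) and Gpx3 (0.777), and Cd24a to Plet1 (0.801), Anxa2 (0.724) and Ddit4l (0.712). Epcam was nearest to Trim47 (0.774), Tagln2 (0.743) and Ddr1 (0.728), and Prom1 to Art4 (0.785), Ak1 (0.780) and Ccdc198 (0.774). For Sox9 these were Hivep3 (0.732), Pdgfb (0.726) and the secretin receptor gene Sctr (0.715), for Cftr Ace (0.702), Dimt1 (0.675) and Ctbp2 (0.671), and for Krt23 Capn6 (0.717), Mxra8 (0.680) and Adgrg6 (0.670). Without Ripk3-/- CD-LFD replicate 3, r for these pairs ran from 0.590 (Cd24a and Ddit4l) to 0.778 (Cd24a and Plet1).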

How the data were processed

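RNA from mouse liver was made into strand-specific libraries per the labels' protocols. The authors deposited raw read counts per Ensembl gene for 44 libraries, and every column matched a labelled sample. Per the submitters' processing notes, FastQC, STAR, HTSeq, edgeR and limma were used with builds GRCm39 and mm39; versions and counting settings are not given in the sources used here, so reads shared with processed pseudogenes, as for Cd24a, Krt8 and Krt18, may be counted either way. Symbols came from the reference gene tables for 34373 of 35249 genes.

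The filterByExpr rule of edgeR, with a minimum count of 10 over the 9 groups, left 14862 genes with 99.8% of counts. Levels are CPM scaled by TMM (factors 0.799 to 1.34). The edgeR 4.0.16 quasi-likelihood F test (R 4.3.3) was fitted to all 44 libraries with 1 mean per group, for 19 contrasts, with Benjamini-Hochberg adjustment per contrast and a threshold of 0.05. SE is the log2 change over the square root of F, and intervals are 95%. Log2 CPM for figures and correlations used a prior count of 2. Ratios from few counts have exact conditional intervals.

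Alternatives were DESeq2 1.42.0, RLE factors, library size alone, no filter, only the compared groups, a replicate block, a clock covariate (side of the Arntl to Dbp split), WT control replicates 5 and 6 left out and each library left out. Fits within a clock side (knockout libraries kept for the spread) and covariation without Ripk3-/- CD-LFD replicate 3 were added after seeing the data. The members and lists were chosen with earlier results of these data known. Besides the 9 genes, the text names from each related list at most 4 called genes of largest change in the WT CD-HFD comparison with mean log2 CPM of at least 0, and the 3 genes most like each member; exceptions are marked. An item that is withheld is not reported here.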

Additional observations from a re-analysis of the deposited data

Results flagged for a closer look

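Sox9 in Ripk3-/- CD-HFD replicate 1 was 40.1 CPM, apart from the other 3 libraries of the group at 22.4 to 24.2 CPM. Cftr in Ripk3-/- control replicate 3 was 0.163 CPM, which is 1 read, where the other 5 libraries had none. Of 63 combinations of gene and group examined for a library standing alone, 2 were picked out, and chance at 1 in 20 gives 3.15. The 63 do not cover all 9 groups for each of the 9 genes, so a library not picked out may not have been examined. This applies to Ripk3-/- CD-LFD replicate 3, the highest of 3 for all 9 genes.

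The response of Epcam to CD-LFD differed between Mlkl-/- and WT livers by -2.88 on the log2 scale (interaction in edgeR, adjusted p = 0.0114). Over 31 fits, the reported one included, the value ran from -3.10 to -2.27 and the adjusted p from 0.00136 to 0.0386. No fit within a clock side was possible, since all WT CD-LFD libraries lie on the upper side and no Mlkl-/- library does, so genotype and clock side cannot be told apart in this term. The 6 Mlkl-/- control libraries were at 23.1, 5.21, 6.91, 1.90, 9.66 and 1.94 CPM, so 4 of 6 were above the highest WT control (2.77 CPM). The value nearest to 0 came without Mlkl-/- control replicate 1, the 23.1 CPM library.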

How the results depend on the processing

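The count of 9 genes higher on CD-HFD than on control diet was kept in all 3 genotypes under each alternative with more than 1 library in each compared group. The WT fit on the upper clock side alone has 1 CD-HFD library, assumed to vary like the other groups. It gave a Sox9 change of 1.03, against 1.13 as reported, and cannot show whether Sox9 depends on the clock side. For the other comparisons, counts of the 9 genes called moved by more than 1.5 times under some settings, and the cause was not tested. WT CD-LFD against control gave 3 on the upper clock side alone (6 as reported), with all-gene calls at 17.0% (27.7%) and like changes for the lost genes (Krt7 1.38, Krt23 1.47, Cd24a 1.12, against 1.61, 1.75 and 1.16). Ripk3-/- CD-HFD against CD-LFD gave 4 with library size alone, 4 with DESeq2 and 0 with only the compared groups (2 as reported), with all-gene calls at 10.3%, 10.5% and 19.1% (8.83%); in the last, Spp1 (1.64) and Cd24a (1.18) kept changes near those reported (1.65 and 1.27) while all-gene calls rose from 1312 to 2844. Mlkl-/- CD-LFD against control gave 4 with only the compared groups (2), with all-gene calls at 39.6% (37.9%). Ripk3-/- against WT on control diet gave 1, Sox9, with library size alone and with DESeq2 (0), and Mlkl-/- against WT on control diet gave 0 on the lower clock side alone (2). The Mlkl-/- by CD-LFD interaction gave 2 with library size alone, without the filter and with only the compared groups, and 3 with DESeq2 and without WT control replicates 5 and 6 (1). All-gene calls in these fits were 10.1%, 2.5%, 4.58%, 11.3% and 10.6% (8.45%). The Mlkl-/- by CD-HFD interaction gave 1 without the filter and with DESeq2 (0), with all-gene calls at 1.27% and 6.51% (4.12%).

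Leaving out each library in turn, the count ran from 9 to 9 for CD-HFD against control in each genotype and for WT CD-HFD against CD-LFD, 5 to 7 for WT CD-LFD, 1 to 8 for Ripk3-/- CD-LFD, 0 to 7 for Ripk3-/- CD-HFD against CD-LFD, 2 to 3 for Mlkl-/- CD-LFD and 7 to 8 for Mlkl-/- CD-HFD against CD-LFD. For Ripk3-/- against WT it ran from 0 to 1 on control diet (1 without WT control replicate 2, 3 or 4), 0 to 1 on CD-LFD (1 without WT CD-LFD replicate 5 or Ripk3-/- CD-LFD replicate 1 or 2) and 0 to 0 on CD-HFD. For Mlkl-/- against WT it was 1 to 3 on control diet (1 without Mlkl-/- control replicate 5) and 0 to 0 on both other diets. The interactions ran from 0 to 0 for Ripk3-/-, 1 to 2 for Mlkl-/- by CD-LFD (2 without WT control replicate 6, WT CD-LFD replicate 3 or 4 or Mlkl-/- control replicate 6) and 0 to 1 for Mlkl-/- by CD-HFD (1 without Mlkl-/- control replicate 4 or 6). The Prom1 change in Ripk3-/- livers on CD-LFD (0.599) ran from -0.388, without CD-LFD replicate 3, to 1.03, without CD-LFD replicate 2. Fits that left a group of 3 with 2 libraries share the spread of the other groups. The share of all genes called in each fit with a library left out is not given here.

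Same-numbered libraries did not deviate together (median r -0.0114 over 146 pairs), so the numbers were not taken as pairs; with the replicate block, Mlkl-/- CD-LFD against control gave 3 calls in place of 2, and the other counts were those reported. With library size alone, the median change of all genes in the diet comparisons ran from 0.184 to 0.488, and higher calls over all genes outnumbered lower ones, as 6870 to 737 (3657 to 3227 as reported) in Ripk3-/- and 6364 to 727 (3699 to 3019) in Mlkl-/- livers on CD-HFD; for the Mlkl-/- by CD-LFD interaction they were 387 to 1108 (649 to 607). The few reads of Cftr and Krt23 on control diet limit what could be seen there.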

Other observations

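Tumour and fetal liver genes were followed beside the set. In WT CD-HFD livers 4 of 5 tested were higher than in controls, with sums of 14.1 to 113 CPM against 2.74 to 8.51 CPM, where 23.5% of all genes tested were higher. All 5 were higher in Ripk3-/- CD-HFD livers (sums of 19.3 to 86.7 CPM, 24.6% of all genes tested higher) and in Mlkl-/- CD-HFD livers (34.6 to 36.4 CPM, 24.9% higher).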
